A study of Mus musculus with 9 samples.

Results

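The 9 complement genes studied, of 24150 tested features, were followed in isolated mouse glomeruli: C1qa, C1ra and C1s1 of the first complement complex, its inhibitor Serping1, the central component C3, the anaphylatoxin receptors C3ar1 and C5ar1, and the membrane regulators Cd55 and Cd59a. They were taken as every non-control probe whose gene name in the scanner files was one of these, which gave 16 of 56605 probes, of which 15 were bright enough to be tested and represented 9 of 9 genes. RNA came from glomeruli that were collected with magnetic beads (Dynabeads) and hybridised to 9 one-colour Agilent arrays, 3 per group. The groups were BTBR ob/ob mice given food with enarodustat, an inhibitor of the prolyl hydroxylases that mark hypoxia-inducible factors for destruction, BTBR ob/ob mice given vehicle food, and BTBR wild-type (WT) mice given vehicle food. All mice were male and 22 weeks old after 18 weeks of feeding, and no WT group received enarodustat. The ob/ob mice lack functional leptin in every tissue and on this strain become obese and diabetic. The labels do not say whether an array holds 1 mouse or a pool, so p-values measure the spread between these samples only, and the number of arrays limits their precision.

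Complement is a protease cascade of blood and tissue fluid that marks surfaces for removal. C1q recognises bound antibody and other ligands, C1r and C1s are the proteases it carries, and cleavage of C3 and C5 releases anaphylatoxins that act on receptors of myeloid cells. Host cells are shielded by membrane proteins that dissociate the convertases (CD55) or block the lytic pore (CD59), and podocytes, the filtration cells of the glomerulus, carry such regulators.

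Complement genes differed from WT in the ob/ob groups, in both directions. C1ra, C1s1, Serping1, C3ar1 and C5ar1 were higher in ob/ob glomeruli with either food, and Cd55 was lower in ob/ob glomeruli with enarodustat than in WT glomeruli. None of the 9 genes passed the test between enarodustat and vehicle within ob/ob mice, although by their brightest probes C5ar1, Cd55 and Cd59a lay lower on every enarodustat array than on any ob/ob vehicle array; the second Cd59a probe and 2 of the 4 Cd55 probes overlapped there. C3 and C1qa did not pass in any comparison.

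The RefSeq promoter windows of 4 genes are shown, 250 bases before to 50 after the annotated start on build GRCm38.p6, for the co-varying C1 protease genes and for both membrane regulators; capitals mark a match to a searched motif, and a match is a description of letters only. The C1ra window lies at chr6:124512371-124512670 on the plus strand, the C1s1 window at chr6:124542310-124542609 on the minus strand, the Cd55 window at chr1:130462695-130462994 on the minus strand and the Cd59a window at chr2:104095551-104095850 on the plus strand.
C1ra promoter: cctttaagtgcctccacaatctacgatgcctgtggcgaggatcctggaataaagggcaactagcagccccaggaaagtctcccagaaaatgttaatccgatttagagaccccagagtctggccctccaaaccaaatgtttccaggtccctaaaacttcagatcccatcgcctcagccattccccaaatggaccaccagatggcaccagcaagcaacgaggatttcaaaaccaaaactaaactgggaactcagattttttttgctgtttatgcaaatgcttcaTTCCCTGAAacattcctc
C1s1 promoter: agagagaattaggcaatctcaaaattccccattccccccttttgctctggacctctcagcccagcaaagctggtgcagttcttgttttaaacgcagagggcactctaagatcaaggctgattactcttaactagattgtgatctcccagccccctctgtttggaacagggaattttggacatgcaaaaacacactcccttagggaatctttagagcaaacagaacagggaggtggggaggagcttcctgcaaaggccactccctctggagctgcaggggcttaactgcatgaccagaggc
Cd55 promoter: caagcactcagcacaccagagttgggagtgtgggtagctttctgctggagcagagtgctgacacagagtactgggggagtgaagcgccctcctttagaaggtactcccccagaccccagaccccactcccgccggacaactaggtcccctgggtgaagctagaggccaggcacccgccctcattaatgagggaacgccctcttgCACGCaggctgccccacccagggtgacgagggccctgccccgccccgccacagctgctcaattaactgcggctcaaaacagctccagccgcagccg
Cd59a promoter: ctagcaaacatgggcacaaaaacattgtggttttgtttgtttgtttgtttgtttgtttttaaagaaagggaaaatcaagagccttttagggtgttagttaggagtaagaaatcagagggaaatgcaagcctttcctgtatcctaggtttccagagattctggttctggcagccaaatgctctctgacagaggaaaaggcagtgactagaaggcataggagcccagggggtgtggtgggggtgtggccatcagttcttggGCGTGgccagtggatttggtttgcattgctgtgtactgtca

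Of the 9 genes, 7 matched the promoter table, with 8 windows among its 32851, and both strands were searched. The hypoxia response core GCGTG, which reads CACGC on the opposite strand, stood in the windows of Cd55 and Cd59a, and 32.4% of all promoters in the table hold it. The alternative core ACGTG, or CACGT on the opposite strand, stood in none of the members' windows, against 19.6% of all promoters. The gamma-activated motif TTCNNNGAA, which reads the same on both strands, stood in the C1ra window, and 8.30% of all promoters hold it. No searched motif stood in the C1s1 window.

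The probes are 60-base oligos, and the sets for C1s1 and Cd55 are shown because their probes answer differently: the 2 tested C1s1 probes disagreed, while the 4 Cd55 probes moved together. Positions are those of the array design on build mm9, on the minus strand for both genes, and the design gives no exon or UTR annotation. The brighter C1s1 probe lies at chr6:124480775-124480834 and the dimmer at chr6:124486309-124486368. Cd55 probes 1 to 4, in falling order of brightness, lie at chr1:132335716-132335775, chr1:132336925-132344911, chr1:132353415-132353474 and chr1:132344000-132344059; the second spans a splice, since its 60 bases cover a longer interval.
C1s1 brighter probe: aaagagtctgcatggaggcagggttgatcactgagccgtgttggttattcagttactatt
C1s1 dimmer probe: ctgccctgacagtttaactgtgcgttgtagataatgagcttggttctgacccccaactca
Cd55 probe 1: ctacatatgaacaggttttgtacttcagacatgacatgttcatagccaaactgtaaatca
Cd55 probe 2: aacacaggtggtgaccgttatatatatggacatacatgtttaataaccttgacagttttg
Cd55 probe 3: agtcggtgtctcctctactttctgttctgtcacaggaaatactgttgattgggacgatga
Cd55 probe 4: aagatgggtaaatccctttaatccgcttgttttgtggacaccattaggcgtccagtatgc

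Values are log2 of the processed signal minus the 75th percentile of that array, so 0 is the brightness of the array's upper quartile; probes differ in response, so no level of one gene is set against that of another. A gene was read from its brightest tested probe and called at a Benjamini-Hochberg adjusted p under 0.05 over all 24150 features. All 10 podocyte markers examined were well above background on every array, and their summed signal was 673 to 850 in ob/ob enarodustat, 784 to 1006 in ob/ob vehicle and 1125 to 1243 in WT glomeruli (in units of each array's 75th percentile). Proximal tubule markers, foreign to glomeruli, summed to 53.8 to 210, 39.3 to 76.1 and 80.8 to 596 in the same groups, with the highest sums on ob/ob enarodustat replicate 2 and WT replicate 3. One slide and scan held 8 arrays, and ob/ob enarodustat replicate 3 was alone on a second slide. Bulk RNA cannot tell fewer cells of a type from less RNA per cell.

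**Figure D1:**
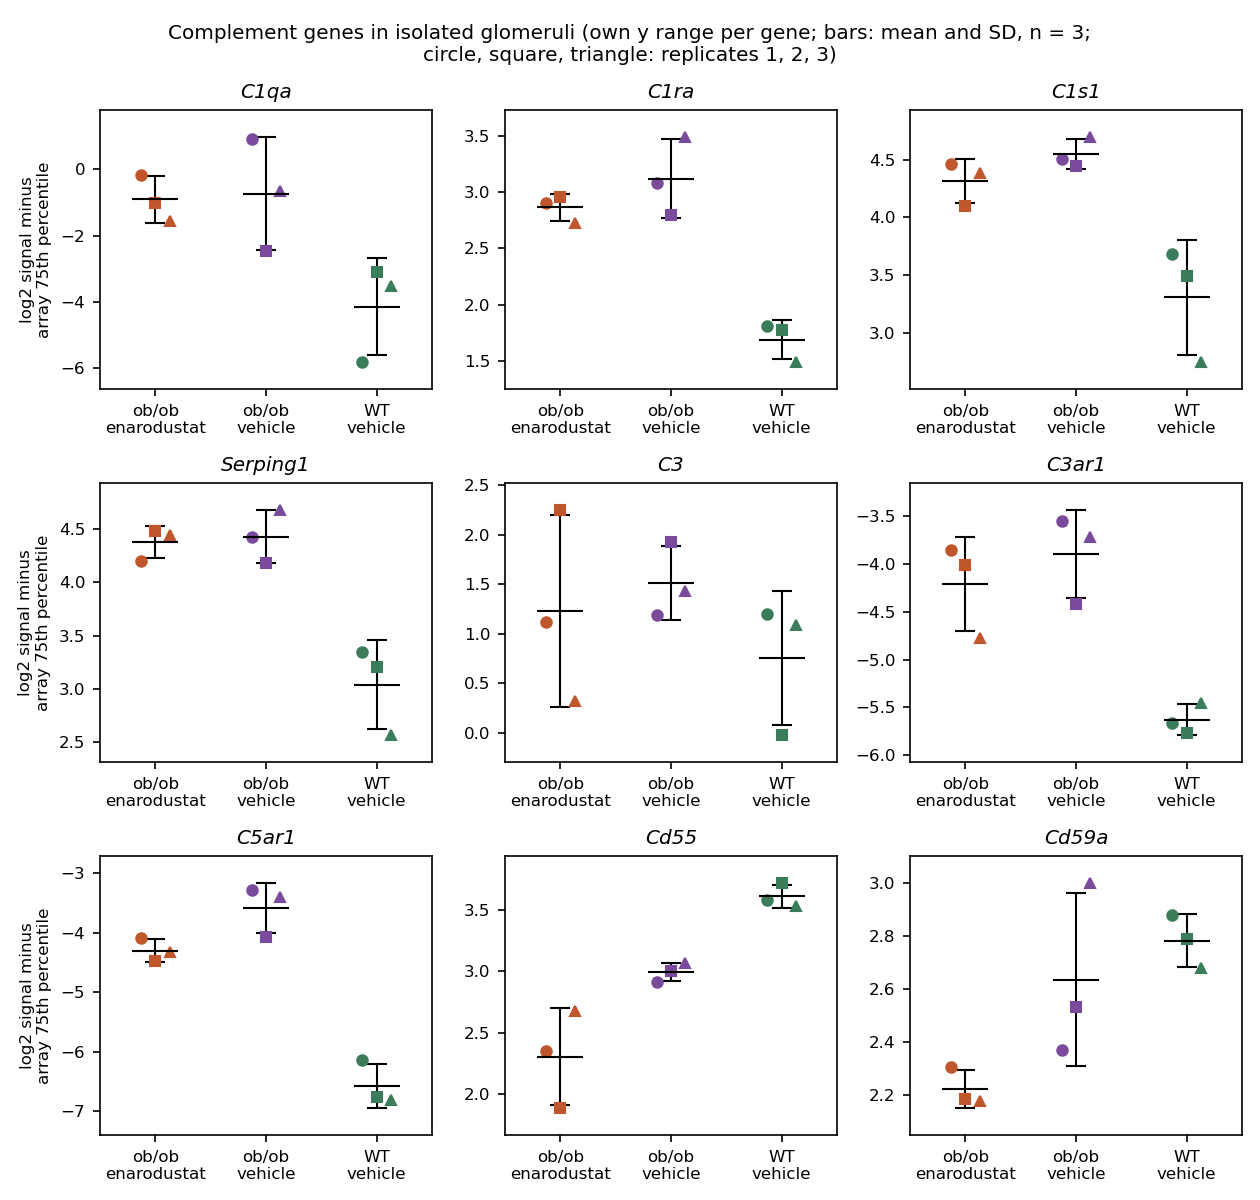
Each panel plots 1 complement gene (y axis: log2 signal minus the array's 75th percentile, own range per gene) by group (x axis), with 1 point per array and a bar for mean and SD (n = 3). C1ra, C1s1, Serping1, C3ar1 and C5ar1 lie above WT in both ob/ob groups, Cd55 lies lowest with enarodustat, and C3 overlaps throughout.

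C1ra, the protease that activates C1s, rose in both ob/ob groups. It stood at 2.91, 2.96 and 2.73 in ob/ob enarodustat, at 3.08, 2.80 and 3.49 in ob/ob vehicle and at 1.81, 1.77 and 1.49 in WT glomeruli. Every ob/ob array lay above every WT array, and the ob/ob groups overlapped. The change from WT was 1.43 ± 0.18 (log2, SE; 2.70-fold) for ob/ob vehicle, with adjusted p = 0.00419, and 1.17 ± 0.18 for ob/ob enarodustat, with adjusted p = 0.00809. The 2 ob/ob groups differed by -0.26 (enarodustat minus vehicle, 95% interval -0.68 to 0.16, adjusted p = 0.784).

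C1s1, the protease that cleaves C4 and C2, followed the same order by its brighter probe. Its values were 4.46, 4.10 and 4.38 in ob/ob enarodustat, 4.50, 4.45 and 4.69 in ob/ob vehicle, and 3.68, 3.49 and 2.74 in WT glomeruli. All 6 ob/ob arrays were above all WT arrays. The log2 change from WT was 1.24 ± 0.23 (SE) in ob/ob vehicle (adjusted p = 0.0160) and 1.01 ± 0.23 in ob/ob enarodustat (adjusted p = 0.0311). This call was less firm than those of its neighbours: without ob/ob vehicle replicate 1 or 3 its adjusted p against WT became 0.0531 or 0.0558, and without WT replicate 2 or ob/ob enarodustat replicates 1 or 3 the enarodustat group's became 0.0617, 0.0898 or 0.0924. The dimmer C1s1 probe, which the design assigns to another transcript record, averaged -3.58 ± 0.37 in ob/ob enarodustat, -3.64 ± 0.043 in ob/ob vehicle and -3.83 ± 0.25 in WT glomeruli (SD, n = 3 each) and was not called in any comparison. Averaging both probes ended the call, with adjusted p = 0.0667 for ob/ob vehicle and 0.0845 for ob/ob enarodustat against WT. The last C1s1 probe was too dim to be tested.

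Serping1, the C1 inhibitor that inactivates C1r and C1s, rose alongside them. The enarodustat arrays gave 4.20, 4.48 and 4.44, the ob/ob vehicle arrays 4.42, 4.18 and 4.68, and the WT arrays 3.35, 3.21 and 2.57. No ob/ob array reached down to the WT arrays, and the ob/ob groups overlapped. The log2 change from WT was 1.38 ± 0.22 (SE) in ob/ob vehicle (adjusted p = 0.00827) and 1.33 ± 0.22 in ob/ob enarodustat (adjusted p = 0.00933). Both calls held in 9 of 9 fits that left out 1 array each, and the ob/ob groups differed by -0.052 (95% interval -0.55 to 0.45, adjusted p = 0.968).

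C1qa, the A chain of the recognition molecule C1q, had the widest spread of the 9 genes. Its values were -0.17, -1.00 and -1.55 in ob/ob enarodustat, 0.93, -2.46 and -0.66 in ob/ob vehicle, and -5.81, -3.10 and -3.52 in WT glomeruli. All ob/ob arrays were above all WT arrays, but the arrays of each group were far apart, and WT replicate 1 was not well above background. The log2 change from WT was 3.42 ± 0.93 (SE) for ob/ob vehicle (adjusted p = 0.0629) and 3.24 ± 0.93 for ob/ob enarodustat (adjusted p = 0.0634), neither of which passed. Leaving out ob/ob vehicle replicate 2 brought both under the threshold (adjusted p = 0.0329 and 0.0427), and leaving out ob/ob vehicle replicate 1 did so for the enarodustat group (0.0467). These arrays are outside the enarodustat comparison with WT, where the change stayed at 3.24 while the spread estimated over all groups moved. Over the 9 fits leaving out 1 array, ob/ob vehicle was called in 1 and ob/ob enarodustat in 2. The adjusted p reached 0.165 for ob/ob vehicle and 0.158 for ob/ob enarodustat. The difference between the ob/ob groups was -0.18, with a 95% interval from -2.30 to 1.95.

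The other chains of C1q showed the same order of the 6 ob/ob arrays. C1qb measured -0.50, -1.15 and -1.53 in ob/ob enarodustat, 0.21, -2.37 and -1.05 in ob/ob vehicle, and -3.25, -2.75 and -2.64 in WT glomeruli. C1qc measured 0.77, 0.07 and -0.64 in ob/ob enarodustat, 1.49, -1.71 and 0.32 in ob/ob vehicle, and -5.68, -2.64 and -2.23 in WT glomeruli. Neither passed the test: their log2 changes from WT were 1.81 (adjusted p = 0.0959) and 3.55 (0.0739) in ob/ob vehicle, and 1.82 (0.0815) and 3.59 (0.0620) in ob/ob enarodustat. Over the 9 arrays, Pearson's r was 0.961 between C1qa and C1qb and 0.989 between C1qa and C1qc; the arrays share their groups and their scaling.

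**Figure D2:**
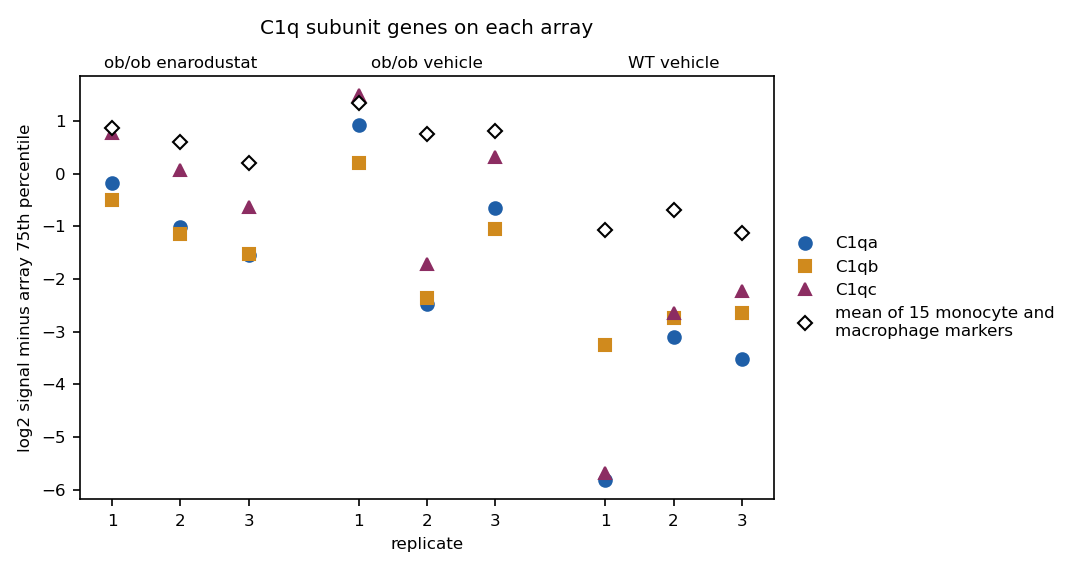
Level of C1qa, C1qb and C1qc on each array (log2 signal minus the array's 75th percentile, y axis) by group and replicate (x axis), with the mean of 15 monocyte and macrophage markers as open diamonds. In ob/ob vehicle glomeruli replicate 2 had the lowest C1qa (-2.46) and replicate 1 the highest (0.93); every WT array lay below every ob/ob array for C1qa.

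C3, from which all pathways branch onward, was not separated by group. It measured 1.11, 2.25 and 0.32 in ob/ob enarodustat, 1.18, 1.92 and 1.43 in ob/ob vehicle, and 1.20, -0.023 and 1.09 in WT glomeruli. The groups overlapped in all comparisons, and the enarodustat arrays were the furthest apart. The log2 change was 0.76 ± 0.50 (SE) for ob/ob vehicle against WT (adjusted p = 0.403), 0.47 for ob/ob enarodustat against WT (adjusted p = 0.592) and -0.29 for enarodustat against vehicle within ob/ob (95% interval -1.42 to 0.85, adjusted p = 0.906). A second C3 probe gave smaller changes of the same signs and no call.

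C3ar1, the receptor for C3a on myeloid cells, was dim and higher in ob/ob glomeruli. It measured -3.85, -4.01 and -4.77 in ob/ob enarodustat, -3.55, -4.42 and -3.72 in ob/ob vehicle, and -5.67, -5.77 and -5.45 in WT glomeruli. Every ob/ob array was well above background and every WT array was not, so only a lower bound of the fold can be given: the brighter group's mean over the dimmest level that counts as measured on the WT arrays. C3ar1 was at least 2.40-fold higher in ob/ob vehicle (adjusted p = 0.0101) and at least 1.93-fold higher in ob/ob enarodustat than in WT glomeruli (adjusted p = 0.0192). Within ob/ob the log2 difference of enarodustat from vehicle was -0.31 (95% interval -0.97 to 0.34, adjusted p = 0.818). The call of ob/ob enarodustat against WT was lost without WT replicate 1, WT replicate 2 or ob/ob enarodustat replicates 1 or 2, with adjusted p of up to 0.0668.

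C5ar1, the receptor for C5a, was also dim and was higher in both ob/ob groups than in WT glomeruli. It measured -4.10, -4.49 and -4.33 in ob/ob enarodustat, -3.29, -4.08 and -3.41 in ob/ob vehicle, and -6.14, -6.76 and -6.81 in WT glomeruli. The 3 groups did not overlap: ob/ob vehicle was highest, ob/ob enarodustat between, and WT lowest. The only C5ar1 probe has 60 bases, but the design places it at chr7:16832094-16832135 on mm9, an interval shorter than the probe. Whether it reads C5ar1 alone was not tested. C5ar1 was at least 2.96-fold higher in ob/ob vehicle than in WT glomeruli (adjusted p = 0.00115) and at least 1.81-fold higher in ob/ob enarodustat (adjusted p = 0.00295), with 0 of 3 WT arrays and 2 of 3 enarodustat arrays well above background. Within ob/ob, the log2 difference of enarodustat from vehicle was -0.71 ± 0.25 (SE, 95% interval -1.28 to -0.14), with an unadjusted p of 0.0209 and an adjusted p of 0.708. The C3ar1 and C5ar1 calls were lost with normexp background correction, which was run with an added offset of 50. Array 75th percentiles were 210 to 325, so this offset shrinks the change of any dim probe. The setting therefore cannot tell whether the calls depend on the background correction itself. With it, the log2 change from WT was 0.26 and 0.35 in ob/ob vehicle (adjusted p = 0.366 and 0.149). In ob/ob enarodustat it was 0.33 and 0.34 (adjusted p = 0.214 and 0.151).

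Monocyte and macrophage markers moved with these genes. Of 15 tested, 12 were called higher in ob/ob vehicle and 10 in ob/ob enarodustat than in WT glomeruli. Of all features, 4.89% and 6.1% were called higher in these comparisons. The summed signal of the markers ranged from 47.0 to 59.6 in ob/ob enarodustat, from 72.7 to 81.3 in ob/ob vehicle and from 19.7 to 31.5 in WT glomeruli. Adgre1, the F4/80 antigen, changed by 2.82 (log2) in ob/ob vehicle and by 2.02 in ob/ob enarodustat, while Fcgr1, an IgG receptor of macrophages, was not measured above background by the WT arrays. Fcgr1 is among the 15 tested markers and thus passed the brightness filter through the ob/ob groups alone. Of 9 tested neutrophil markers, 1 was called higher in ob/ob vehicle than in WT glomeruli. In ob/ob enarodustat 1 was called higher and 1 lower. Neutrophil markers summed to 5.37 to 11.3 in ob/ob enarodustat, 6.12 to 36.5 in ob/ob vehicle and 4.61 to 8.31 in WT glomeruli. Mesangial markers, of a stromal cell of the glomerular tuft, summed to 487 to 570, 564 to 616 and 226 to 363 in the same groups, and 3 of 10 were called higher in either ob/ob group. Across the 9 arrays the mean of the macrophage markers correlated with C3ar1 at r = 0.952, with C5ar1 at 0.954, with C1ra at 0.936 and with C3 at 0.410, where the arrays share groups and scaling. For C3ar1 and C5ar1 the WT values in r are background readings. The part of these cells in the complement values was not tested.

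Cd55, decay-accelerating factor, which dissociates C3 convertases, was called lower in ob/ob glomeruli with enarodustat than in WT glomeruli. Probe 1 measured 2.35, 1.89 and 2.68 in ob/ob enarodustat, 2.92, 3.00 and 3.07 in ob/ob vehicle, and 3.58, 3.72 and 3.54 in WT glomeruli. The 3 groups did not overlap, with enarodustat lowest and most spread. The log2 change from WT was -1.31 ± 0.19 (SE) in ob/ob enarodustat (adjusted p = 0.00602, called in 9 of 9 fits that left out 1 array) and -0.62 ± 0.19 in ob/ob vehicle (adjusted p = 0.0850, not called). Enarodustat and vehicle within ob/ob differed by -0.69 ± 0.19 (95% interval -1.11 to -0.26), with an unadjusted p of 0.00550 and an adjusted p of 0.683.

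The other Cd55 probes repeated the order of the group means, but on probes 3 and 4 the enarodustat arrays overlapped those of ob/ob vehicle, with enarodustat replicate 3 at 0.74 and -0.73 against ob/ob vehicle ranges of 0.58 to 0.69 and -0.99 to -0.58. Over the 4 probes printed above, the log2 change from WT ran from -1.60 to -1.08 in ob/ob enarodustat, with 4 of 4 called, and from -1.03 to -0.42 in ob/ob vehicle, with 0 of 4 called. Between enarodustat and vehicle it ran from -0.69 to -0.42, with 0 of 4 called. With each of 36671 probes tested as its own feature, 9.62% were called in ob/ob enarodustat against WT, 7.21% in ob/ob vehicle against WT and 0% between the ob/ob groups. The probes read one gene on the same arrays and are not replicates. Whether ob/ob vehicle was called against WT depended on the setting. The call was gained with quantile normalization (-0.74, adjusted p = 0.0427), with normexp (-0.63, 0.0463) and with array weights (0.0123). Of 9 fits that left out 1 array, 2 gained it, without ob/ob enarodustat replicate 2 (0.0289) or 3 (0.0495). Those arrays are outside this comparison, so the change stayed at -0.62 while the spread estimated over all groups moved. In the other fits leaving out 1 array it was not called, with adjusted p of up to 0.210.

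Cd59a, which stops C9 from completing the lytic pore, had its lowest group mean with enarodustat. Its brighter probe measured 2.30, 2.18 and 2.18 in ob/ob enarodustat, 2.37, 2.53 and 3.00 in ob/ob vehicle, and 2.88, 2.79 and 2.68 in WT glomeruli. On this probe the enarodustat arrays lay below all others, and the ob/ob vehicle and WT arrays overlapped. The log2 difference was -0.56 ± 0.16 (SE) for ob/ob enarodustat against WT (adjusted p = 0.0662), -0.15 for ob/ob vehicle against WT (0.636) and -0.41 ± 0.16 for enarodustat against vehicle (unadjusted p = 0.0341, adjusted p = 0.708). A second Cd59a probe did not repeat this arrangement: it measured 2.15, 1.88 and 2.50 in ob/ob enarodustat, 2.26, 2.27 and 2.70 in ob/ob vehicle, and 2.94, 2.97 and 3.00 in WT glomeruli. There the ob/ob groups overlapped, and both lay below WT. Tested separately as a feature, it gave -0.80 for ob/ob enarodustat against WT (called, adjusted p = 0.0292), -0.56 for ob/ob vehicle against WT (not called, 0.106) and -0.24 for enarodustat against vehicle (not called, 0.825). The gene itself was called in ob/ob enarodustat against WT with quantile normalization (0.0366), with normexp (0.0104), with the mean of both probes (0.0307), with a proximal tubule covariate (0.0412), with array weights (0.0317) and without ob/ob vehicle replicate 3 (0.0266). The last was 1 of 9 fits leaving out 1 array, and it dropped an array outside this comparison, so the change stayed at -0.56. In the other fits leaving out 1 array the gene was not called, with adjusted p of up to 0.161.

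By their main probes, the paralogues of both regulators had the same order of means. Cd55b, listed as Daf2 in the files, averaged -0.40 ± 0.42 in ob/ob enarodustat, 0.059 ± 0.089 in ob/ob vehicle and 0.60 ± 0.13 in WT glomeruli (SD, n = 3 each), and fell by 1.00 (log2) in ob/ob enarodustat against WT (adjusted p = 0.0180, called in 7 of 9 fits leaving out 1 array). Its second probe gave -0.25 in that comparison and was not called. That probe had another order, with means of -2.32 in ob/ob enarodustat, -2.62 in ob/ob vehicle and -2.07 in WT glomeruli. Cd59b fell by 0.69 in ob/ob enarodustat against WT (adjusted p = 0.0439), a call that held in 2 of 9 fits leaving out 1 array. The main probes of Cd55 and Cd55b match at 22 of 60 bases in their best ungapped overlap, and those of Cd59a and Cd59b at 24 of 60; whether a probe reads the paralogue's RNA was not tested.

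Podocyte markers moved with Cd55. Of 10, 6 were called lower in ob/ob vehicle and 8 in ob/ob enarodustat than in WT glomeruli, with median log2 changes of -0.90 and -1.08. Of all features, 2.66% and 4.09% were called lower in these comparisons. Enarodustat against vehicle gave a median of -0.21 with 0 of 10 called. Over 9 arrays the mean of these markers correlated with Cd55 at r = 0.938 and with Cd59a at 0.681. Markers of the thick limb and collecting duct summed to 52.7 to 104 in ob/ob enarodustat, 4.24 to 25.4 in ob/ob vehicle and 7.43 to 94.2 in WT glomeruli. The part of podocytes or of tubule fragments in the Cd55 and Cd59a values was not tested.

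**Figure D3:**
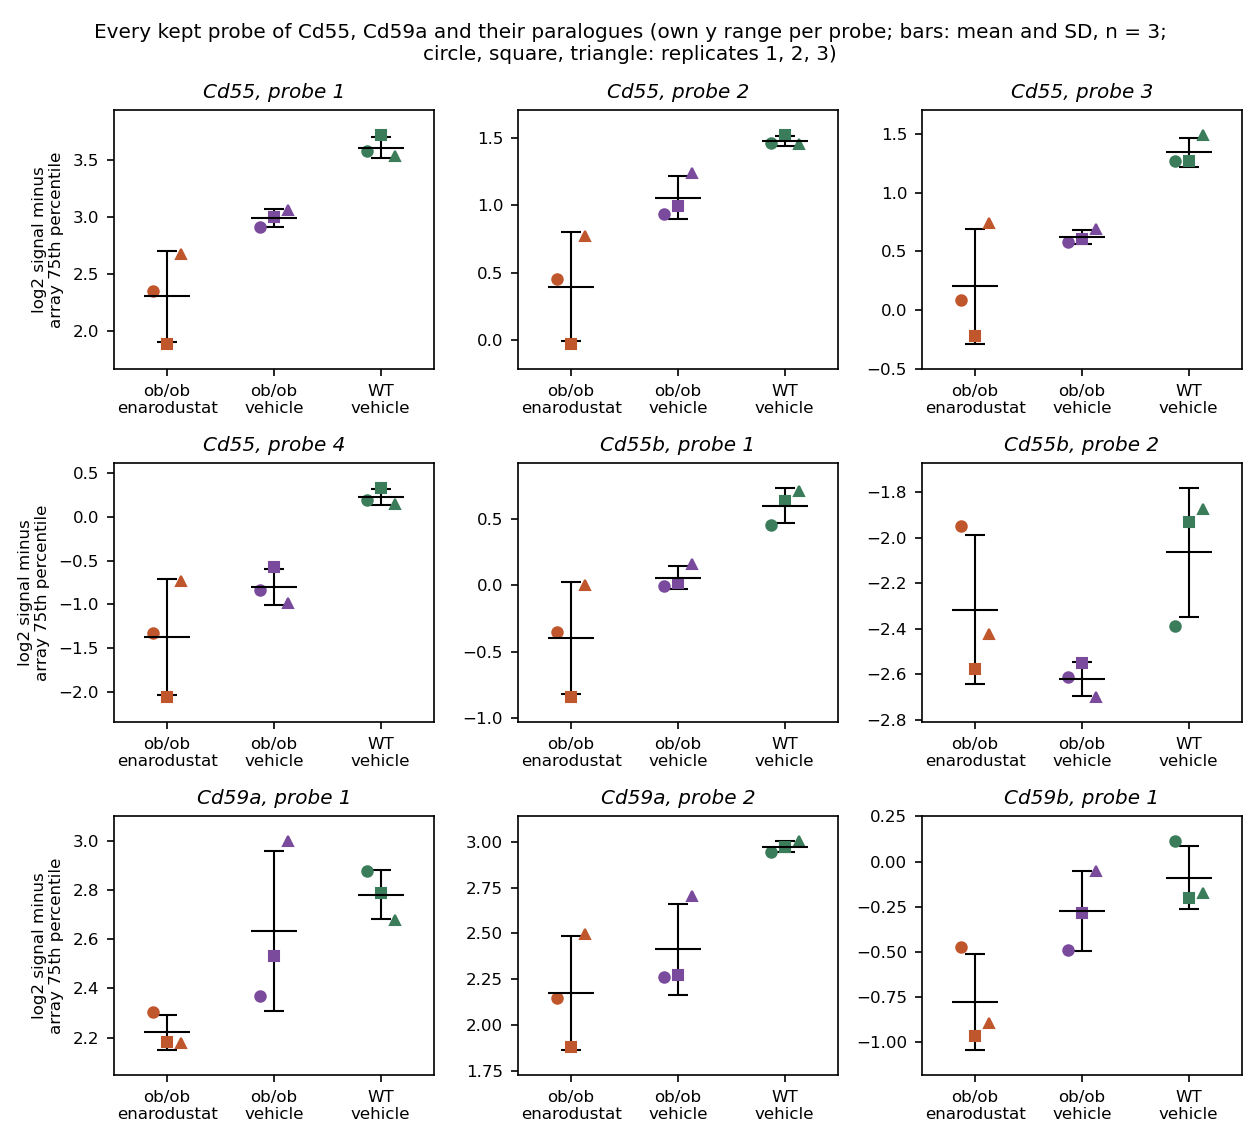
Every tested probe of Cd55, Cd55b, Cd59a and Cd59b (y axis: log2 signal minus the array's 75th percentile, own range per probe) by group (x axis), with 1 point per array and a bar for mean and SD (n = 3). The 4 Cd55 probes have the same order of group means, with WT highest and ob/ob enarodustat lowest, while the second Cd55b probe is lowest in ob/ob vehicle glomeruli.

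Counted together, 5 of the 9 genes were called higher and 0 lower in ob/ob vehicle against WT, where 4.89% of all features were called higher, 2.66% lower and 7.55% in either direction. In ob/ob enarodustat against WT, 5 were called higher and 1 lower, against 6.1% and 4.09% of all features and 10.2% in either direction. Of the 5 higher genes in each comparison, C3ar1 and C5ar1 were not well above background on any WT array. They thus passed the brightness filter through the ob/ob groups alone. With normexp, whose offset shrinks changes of dim probes, neither was called. These comparisons share the WT arrays, and each shares its ob/ob arrays with the comparison within ob/ob mice. The median log2 change of the 9 genes was 1.38 for ob/ob vehicle and 1.17 for ob/ob enarodustat against WT, where all features had medians of 0.016 and -0.0056. The groups did not overlap for 7 of 9 genes in ob/ob vehicle against WT, with 6 higher and 1 lower, where 30.7% of all features did not overlap, 17.8% higher and 12.9% lower. In ob/ob enarodustat against WT they did not overlap for 8 of 9 genes, 6 higher and 2 lower, where 30.8% of all features did not overlap, 16.8% higher and 14% lower.

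For enarodustat against vehicle within ob/ob mice, limma called 0 of the 9 genes and 0% of all 24150 features. At an unadjusted p under 0.05 there were 3 of the 9 genes, namely C5ar1, Cd55 and Cd59a, and 1692 features (7.01%). All 9 differences were negative, from -0.71 for C5ar1 to -0.052 for Serping1, with a median of -0.29, against -0.027 over all features. Of all 24150 features, 13349 were negative and 10801 positive. The 15 monocyte and macrophage markers and the 10 podocyte markers were all negative too, while 14 of 15 proximal tubule markers were positive. By the brightest probes the groups did not overlap, with enarodustat lower, for 3 of the 9 genes and for 9.49% of all features; 6.5% of features lay higher without overlap, 16% in either direction, and 0 of the 9 genes lay higher. The sign was not stable for C3, C3ar1, Serping1 and C1qa, which turned positive under at least one alternative.

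**Figure D4:**
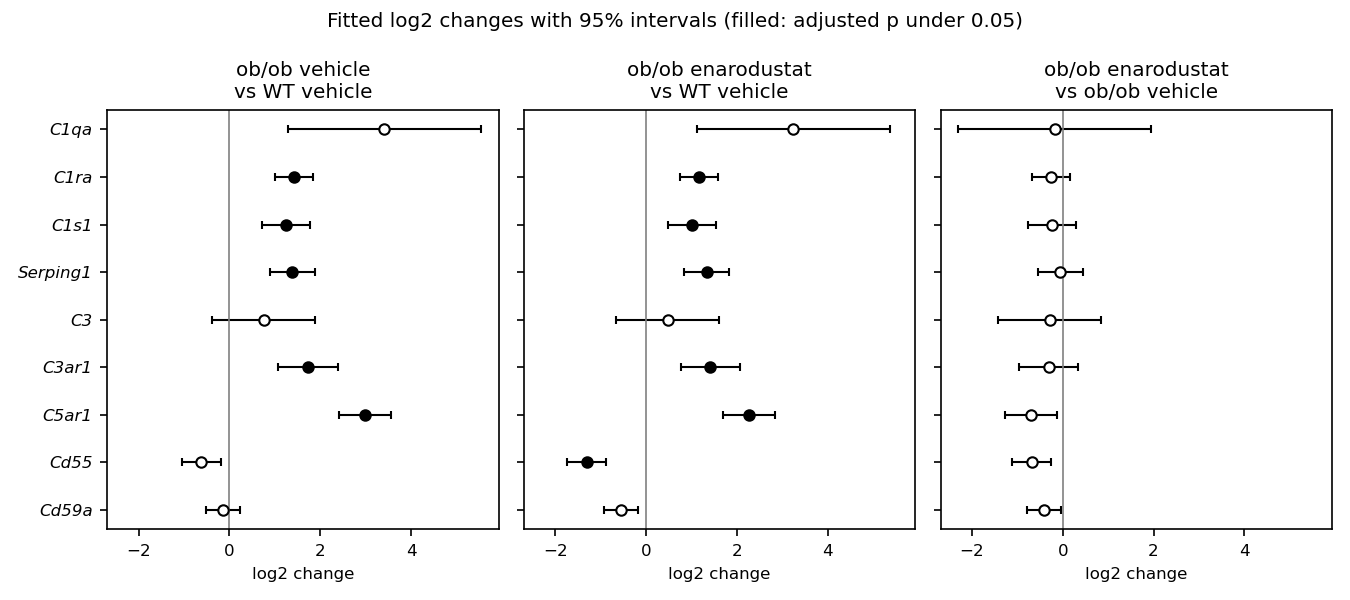
Fitted log2 change (x axis) of the 9 complement genes (y axis) in each comparison, with 95% intervals, and filled points for an adjusted p under 0.05. In ob/ob vehicle against WT 5 genes are filled, in ob/ob enarodustat against WT 6, and between the ob/ob groups none.

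Of 48 other complement genes listed, 33 were bright enough to test. In ob/ob vehicle against WT 6 rose and 0 fell, with a median of 0.18, where 4.89% of all features were called higher and 2.66% lower. In ob/ob enarodustat against WT 5 rose and 2 fell, with a median of 0.14, where 6.1% of all features were called higher and 4.09% lower. Among the genes that rose in both, Fcna was not well above background on any WT array. It passed the brightness filter through ob/ob vehicle alone. C1s2 is also counted there, and whether its probe reads C1s1 RNA was not tested. Between the ob/ob groups limma called 0 of 33, and 4 had an unadjusted p under 0.05, as 7.01% of all features did.

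Genes of complement receptors were among those that rose. Itgb2, the beta chain shared by complement receptors 3 and 4, measured -0.32, -0.43 and -0.27 in ob/ob enarodustat, -0.080, -0.26 and -0.38 in ob/ob vehicle, and -2.27, -2.30 and -2.48 in WT glomeruli. The arrays of each group were tight, and the log2 change from WT was 2.11 ± 0.12 (SE) in ob/ob vehicle (adjusted p = 0.000173) and 2.01 ± 0.12 in ob/ob enarodustat (adjusted p = 0.000499). Itgax, the alpha chain of complement receptor 4, changed by 1.48 in ob/ob enarodustat against WT (adjusted p = 0.0137) and by 1.50 in ob/ob vehicle against WT (0.0145; 0.0583 without ob/ob vehicle replicate 1). Its second tested probe gave -0.18 for ob/ob enarodustat and 0.013 for ob/ob vehicle and was not called. Itgam, the alpha chain of complement receptor 3, was not called by its brighter probe, with -0.17 in ob/ob vehicle and 0.11 in ob/ob enarodustat against WT. The sequence of that probe begins with a CA repeat, and whether it reads Itgam alone was not tested. The dimmer Itgam probe gave -0.39 in ob/ob vehicle and -0.55 in ob/ob enarodustat, lower than WT on every array and not called (adjusted p = 0.225 and 0.0898 testing probes separately).

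Cd93, a C-type lectin-like receptor of endothelium and myeloid cells once taken for a C1q receptor, averaged 4.29 ± 0.24 in ob/ob enarodustat, 4.42 ± 0.12 in ob/ob vehicle and 2.38 ± 0.38 in WT glomeruli (SD, n = 3 each), and was called in both comparisons with WT (adjusted p = 0.00274 for ob/ob enarodustat and 0.00191 for ob/ob vehicle). Fcna, ficolin A, a recognition molecule of the lectin pathway, was at least 2.48-fold higher in ob/ob enarodustat (adjusted p = 0.0101) and at least 2.25-fold higher in ob/ob vehicle than in WT glomeruli (0.0138), where 0 of 3 arrays measured it above background. With normexp, whose offset shrinks changes of dim probes, neither call of Fcna held (adjusted p = 0.0590 and 0.244). C1s2, the paralogue of C1s1, changed by 1.02 in ob/ob enarodustat (adjusted p = 0.0270) and by 1.23 in ob/ob vehicle against WT (0.0149), calls that held in 6 and 8 of the 9 fits leaving out 1 array. Its 9 values followed those of C1s1 at r = 0.998. Their main probes match at 21 of 60 bases in the best ungapped overlap, which compares the probes with each other and not with the transcripts. Whether either probe reads the other gene's RNA was not tested. Thbd, thrombomodulin, which supports inactivation of C3b, was higher in ob/ob vehicle only by its call (0.66, adjusted p = 0.0303, held in 4 of 9 fits leaving out 1 array, against 0.44 and 0.0957 in ob/ob enarodustat). The ob/ob groups themselves were not called different in Thbd (adjusted p = 0.771).

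The remaining steps of the cascade had few tested genes and no calls by their brightest probes. Cfb of the alternative pathway, with a log2 change of 0.49 in ob/ob vehicle and 0.55 in ob/ob enarodustat against WT, did not pass. Cr1l (Crry), a rodent convertase inhibitor, did not pass either, with 0.37 in ob/ob vehicle and 0.14 in ob/ob enarodustat, although a dimmer Cr1l probe, tested as its own feature, was called in ob/ob vehicle against WT (0.70, adjusted p = 0.0465). C4b and C2, the substrates of C1s, gave -0.87 and -0.80 in ob/ob vehicle against WT without passing. Both were highest on WT replicate 3 (1.31 and 0.12) and next on ob/ob enarodustat replicate 2 (0.049 and -0.13), the arrays with the highest proximal tubule signal. Hc, which encodes C5, and C6, C8a, C8b and C9 of the terminal pathway, with Cfd, Cfi, C4bp, Vsig4, Mbl1, Mbl2, Colec10, Vtn and Csmd1, were not well above background on all arrays of any group and were not tested.

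**Figure D5:**
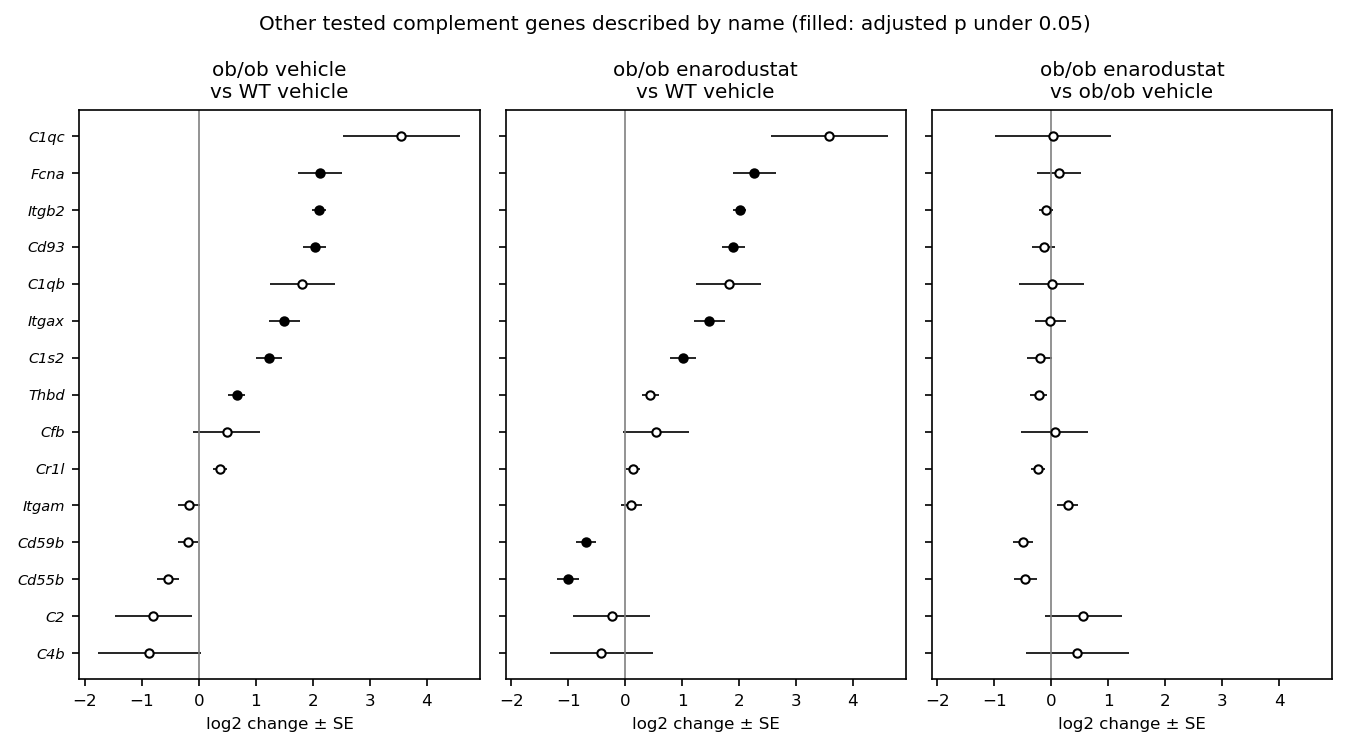
Fitted log2 change with its SE (x axis) for the other tested complement genes described by name (y axis, in order of ob/ob vehicle against WT), with filled points for an adjusted p under 0.05. Itgb2, Fcna, Cd93, Itgax and C1s2 are filled in both comparisons with WT, and none is filled between the ob/ob groups.

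Among 15360 named genes, the patterns most like each complement gene over the 9 arrays were ranked by Pearson's r, leaving out genes within 1 Mb. C3ar1 was followed most closely by Fcgr1 (0.988) and Lair1 (0.969), and C5ar1 by Ang6 (0.995), Gabra5 (0.993) and Cd47 (0.992). For C1ra they were Dpep2 (0.988), Camkk1 (0.987) and Col12a1 (0.986), for C1s1 Cd302 (0.996), Fstl1 (0.989) and Plac9a (0.987), and for Serping1 Spn (0.993), Commd3 (0.989) and Apoe (0.988). Those of Cd55 were Enpep (0.997), Rab30 (0.992) and Colgalt2 (0.985), of Cd59a Clec2l (0.966), Olfr53 (0.966) and Ntrk3 (0.947), of C1qa Smurf2 (0.977), Ldlrad4 (0.977) and Cd72 (0.972), and of C3 Elapor1 (0.978), Dlx6os2 (0.939) and Pmaip1 (0.927). With 9 arrays in 3 groups, any gene with the same group means reaches a high r. C3ar1, C5ar1 and Fcgr1 were not well above background on any WT array, so their WT values in each r are background readings.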

How the data were processed

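Glomerular total RNA carried the Cy3 dye on 9 arrays, 3 in each group. Per the file headers, the authors' scanner files were made with Agilent Feature Extraction 11.5.1.1 and hold, for each of 62976 spots, a background-subtracted processed intensity on a linear scale and quality flags. The deposited table of log2 values matched the values used here to within a median of 0.007 per array and served as an alternative. Control spots (3671) and outlier spots were left out, the intensity of the spots of a probe was averaged, and log2 was taken minus that of each array's 75th percentile. A probe was kept where all 3 arrays of some group flagged it as well above background (36671 of 56605), and a gene was read from its brightest kept probe. No spot was saturated.

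All 9 arrays entered 1 fit per gene with limma 3.58.1 (lmFit, contrasts and eBayes, R 4.3.3), two-sided, with Benjamini-Hochberg adjustment over 24150 features. The fit was tested on simulated data. Where no array of a group measured a probe above background, the fold is the brighter mean over the higher of the dimmest measured signal and the probe's own, averaged over arrays. Genes were named through the accession or symbol in a RefSeq table where it held them. The members, the lists and the tests were chosen with earlier results of these data known. Genes were named by a rule: the 9 members on every array, other complement genes that were called in a comparison plus 10 listed ones called or not, and the 3 most alike genes of each member. Some genes that this rule takes are not reported here. Alternatives were quantile normalization, normexp background correction (offset 50), array median scaling, the deposited table, the filter on dim probes, the choice of probes, leaving out each array, replicate and slide blocks, a proximal tubule covariate and array weights. Same-numbered arrays of different groups had correlations of their deviations from -0.31 to 0.27, so the numbers were not taken as pairs.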

Additional observations from a re-analysis of the deposited data

How the results depend on the processing

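The number of features called in ob/ob vehicle against WT, 1823 as reported, was 1005 with no filter on dim probes, 660 with a proximal tubule covariate, 4181 with array weights and 916 to 1774 when 1 array was left out. In ob/ob enarodustat against WT, 2461 became 1227 with no filter, 1365 with the slide as a block (which removes ob/ob enarodustat replicate 3 and so gives the values within the first slide), 4527 with array weights and 1215 to 2163 when 1 array was left out. It was 1292 without WT replicate 3 and ob/ob enarodustat replicate 2 together, an alternative chosen after seeing the data because these arrays had the highest tubule signal. That fit also ended the C1ra call of ob/ob enarodustat against WT (1.03, adjusted p = 0.0561) and that of C3ar1 (0.0890). Complement genes called in ob/ob vehicle against WT numbered 3 instead of 5 when probes had to be well above background on all 9 arrays, which removes C3ar1 and C5ar1 by construction, and 4 to 6 when 1 array was left out. In ob/ob enarodustat against WT the 6 calls ranged from 4 to 7 over all alternatives, and between the ob/ob groups 0 were called under each one. With the replicate number as a block the counts were 5, 0 and 5 complement genes and 1408, 0 and 1954 features for ob/ob vehicle against WT, enarodustat against vehicle and ob/ob enarodustat against WT; the block ended the C1s1 call of the last comparison (adjusted p = 0.0536), as did no filter on dim probes (0.0737). The tubule covariate ended the calls of Fcna (1.87, adjusted p = 0.0855), Itgax (1.29, 0.0902) and Thbd (0.46, 0.136) in ob/ob vehicle against WT, and averaging probes that of Cd55b in ob/ob enarodustat against WT (0.0530).

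Directions that turned were all of values not called. Between enarodustat and vehicle, C3 was 0.17 with the slide block, C3ar1 0.069 with normexp, Serping1 0.11 with the tubule covariate, and C1qa 0.14 with the slide block and 0.12 with array weights. Leaving out 1 array each, that difference ranged from -0.80 to 0.17 for C3 (highest without ob/ob enarodustat replicate 3), from -0.17 to 0.073 for Serping1 (without ob/ob vehicle replicate 3) and from -1.04 to 0.66 for C1qa (without ob/ob vehicle replicate 1). Against WT, C3 in ob/ob enarodustat ranged from -0.037, without ob/ob enarodustat replicate 2, to 0.93. The cause was not tested. With 3 arrays per group, precision limits what can be called, and C3ar1 and C5ar1 lie at background in WT, where a fold is only a bound. Array median scaling moved the median of all features by under 0.1 on the log2 scale.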
